A study of Mus musculus with 16 samples.

Results

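The comparison set the ileum against the colon of the same 4 mice, all of them colonized with wild-type (WT) Bifidobacterium breve, using 8 of the 16 RNA libraries of the series. Members were chosen by the labels alone: the 4 ileal and the 4 colonic libraries of mice given the WT strain, joined by mouse, with every gene that passed a filter on low counts, 14528 genes in all. The study kept wild-type mice germ-free and then mono-colonized them for 5 weeks with WT B. breve or with a Δchat strain, which makes no acetylcholine, with 4 mice per strain. Cells of the ileal and colonic lamina propria, the connective tissue under the gut lining, were collected from the interface of a 40% and 80% Percoll gradient, and their polyadenylated RNA was sequenced. A group is therefore a set of 4 gradient-enriched lamina propria cell preparations from mice that carried 1 bacterial species and no other. No germ-free or conventionally colonized mouse was among the libraries. The Δchat libraries of the same design (4 mice, ileum and colon) served only to set each tissue difference beside its counterpart under the other strain.

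The ileal and colonic lamina propria hold the same broad cell types in different proportions. Plasma cells that secrete immunoglobulin A (IgA) are abundant in both, lymphocytes reach the small intestine through the chemokine receptor Ccr9 and the large intestine partly through Gpr15, and organized follicles of resting B cells lie in Peyer's patches along the ileum and in colonic patches and solitary follicles along the colon. Stromal cells along the gut keep a positional code of Hox transcription factors, with the last-numbered genes of each cluster active towards the rectum. In a bulk preparation, fewer cells of a type and less RNA per cell cannot be told apart, and this holds for every result given here.

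The 8 libraries held between 17.6 M and 23.6 M estimated counts each, and 17440 to 18138 genes had at least 1 count. Levels are given as CPM, counts scaled to a common library total, in the order of replicates 1 to 4, and fold changes are fitted log2 ratios of ileum over colon within a mouse, with their standard error (SE). A gene was called when its adjusted p was under 0.05. The first principal component separated the tissues and carried 53.2% of the variance, and the second carried 12.5% and set colonic replicates 1 and 4 apart from colonic replicates 2 and 3. The labels call the cells immune, and markers of T cells, B cells, plasma cells and macrophages were present in each library. Non-immune markers were present as well: the 25 fibroblast genes summed to 5452 to 8889 CPM in the ileum and 5419.8 to 11332 CPM in the colon, and the 13 blood endothelial genes to 5514 to 7457 and 2597 to 4078 CPM. Epithelial genes, 22 in the list, summed to 122 to 391 and 69.8 to 309 CPM.

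Of the 14528 genes tested, 2093 (14.4%) were higher in the ileum and 1291 (8.89%) higher in the colon. The counts called in each list below stand beside these shares. A difference of at least 2-fold was found for 792 of them (5.45% of the genes tested) towards the ileum and for 380 (2.62%) towards the colon, and 5632 genes had an unadjusted p under 0.05. Over the 14528 genes the median log2 fold change was -0.0064. Of 231 tested genes in 16 lists of immune cell markers, 121 were higher in the ileum and 37 in the colon, with a median log2 fold change of 0.72, and of 138 tested genes in 14 lists of non-immune markers, 20 and 9, with a median of 0.31. The counts depended on which mice were included. In all, 3384 genes were called, but 1556 without replicate 1, 1637 without replicate 2 and 1861 without replicate 4. Leaving out replicate 3 changed the count little, to 3218. Without the pairing by mouse, 4726 genes were called, 2583 towards the ileum and 2143 towards the colon.

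**Figure D1:**
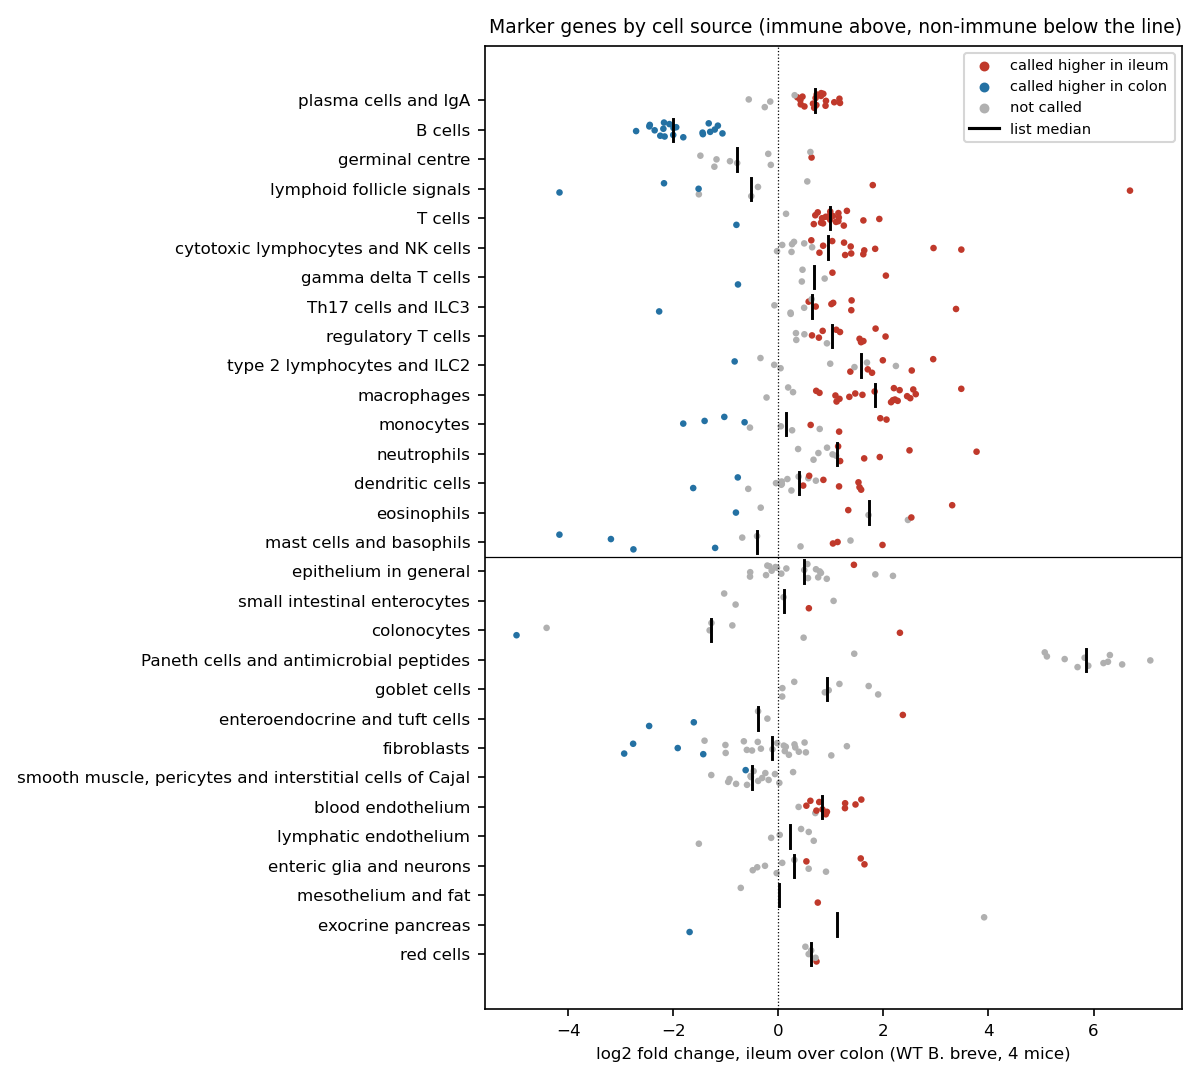
Each point is 1 marker gene, its fitted log2 fold change (ileum over colon, 4 mice) on the horizontal axis, in lists of cell sources on the vertical axis; red points were called higher in the ileum, blue points higher in the colon, grey points were not called, and black bars are list medians. B cell markers lie wholly on the colonic side, and those of macrophages and blood endothelium mostly on the ileal side.

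The genes with the smallest p-values towards the ileum included markers of phagocytes, cytotoxic lymphocytes and interferon response. C6, which encodes a component of the terminal complement complex, was at 30.8, 20.1, 30.1 and 26.2 CPM in the 4 ileal libraries and at 0.158, 0.213, 0.383 and 0.551 CPM in the 4 colonic ones. No ileal library came near a colonic one, and the log2 fold change was 6.35 ± 0.27 (adjusted p = 0.000356). Gbp2b, an interferon-induced guanylate-binding protein, averaged 73.2 ± 8.68 CPM in the ileum against 4.81 ± 0.858 CPM in the colon (mean ± SD, n = 4), a log2 fold change of 3.93 ± 0.14. Cyp1b1, a cytochrome P450 that the aryl hydrocarbon receptor induces, averaged 94.7 ± 11.5 against 8.99 ± 3.16 CPM (log2 fold change 3.45). Also among the 12 smallest p-values, of genes with a mean of at least 5 CPM in the higher tissue, were Plin2, a lipid droplet coat protein (1.75), Hcar2, the niacin and butyrate receptor (1.80), Pla2g7, which degrades platelet-activating factor (2.43), Slc11a1, a metal transporter of phagosomes (2.04), and Siglec1, the macrophage receptor CD169 (3.48), each given as log2 fold change. Among the largest changes, Mmp9, a gelatinase of neutrophils and macrophages, stood at 3.77 and Disp2 at 3.77.

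Towards the colon, the 3 smallest p-values at this level belonged to positional transcription factors, Pitx1, Hoxa11 and Hoxd13, the last pair given with the Hox genes further on. Pitx1, a homeobox factor known from the hindlimb, was at 17.1, 28.3, 21.2 and 8.16 CPM in the colonic libraries and at 1.12, 0.668, 0.569 and 0.546 CPM in the ileal ones. The lowest colonic value stood well above the highest ileal value, and the fitted log2 change was -4.63 ± 0.31 (adjusted p = 0.000753). Inmt, a methyltransferase, averaged 13.2 ± 9.03 CPM in the colon and 0.499 ± 0.151 CPM in the ileum (-4.52), and its colonic libraries fell into 2 low (replicates 1 and 4) and 2 high ones (replicates 2 and 3), the same split as the second principal component. Hpse, the enzyme that cleaves heparan sulfate, averaged 46.6 ± 11.3 against 12.3 ± 1.44 CPM (-1.89 ± 0.16). Fcmr, the receptor for IgM on B cells (-2.63), and Fam129c, another B cell gene (-2.15), shared the direction. Smaller shifts with small p-values were found for Syne3 (-0.98), Lynx1 (-1.03), Add3 (-0.95), Utp14b (-1.20), Gpat3 (-1.45) and Spata13 (-0.79).

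**Figure D2:**
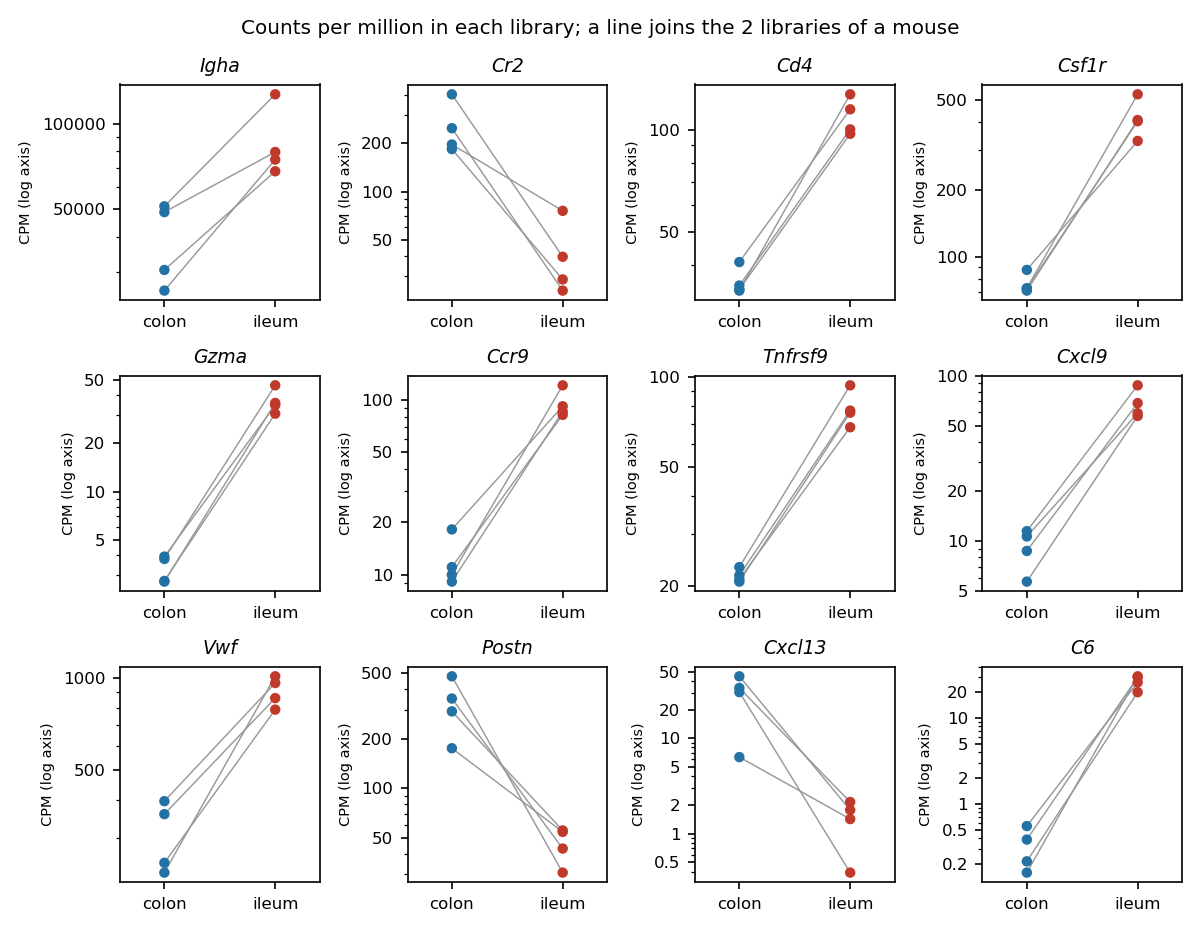
CPM on a log axis in the colonic (blue) and ileal (red) library of each of 4 mice, a grey line joining the libraries of a mouse, for 12 genes of different cell sources. Ileal and colonic values do not overlap in any of the 12 panels; Cr2, Postn and Cxcl13 are higher in the colon and the other genes in the ileum.

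Markers of resting B cells were higher in the colon without exception, while those of plasma cells were higher in the ileum. All 20 B cell genes were called towards the colon (8.89% of all genes were), with a median log2 fold change of -2.0. Cr2, the complement receptor of mature and follicular B cells, was at 403, 184, 196 and 248 CPM in the colonic libraries and at 39.3, 28.4, 75.9 and 24.2 CPM in the ileal ones. The ranges did not meet, although ileal replicate 3 lay above the other ileal libraries, and the log2 fold change was -2.71 ± 0.38 (adjusted p = 0.00764). Ighd, the constant region of surface IgD (-2.45), Fcrla (-1.99), H2-Ob, a modulator of peptide loading in B cells (-1.94), and Ebf1, the factor that sets B cell identity (-1.21), shared the direction, and Cd72 had the smallest shift of the list (-1.06). No B cell list member had overlapping tissue ranges. Between 17 and 20 of the 20 were called under the alternative settings.

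Among 22 plasma cell genes, 18 were called towards the ileum and none towards the colon (14.4% and 8.89% of all genes), with a median of 0.70. Igha, the IgA heavy chain, was at 74677, 126717, 67943 and 79420.0 CPM in the ileum and at 25843, 51145, 30550.0 and 48811 CPM in the colon. Replicates 2 and 4 were the highest of both tissues, and the lowest ileal library lay above the highest colonic one (log2 fold change 1.17 ± 0.16, adjusted p = 0.00473). Prdm1, the factor Blimp-1 that drives plasma cell fate, averaged 122 ± 9.37 against 54.7 ± 5.59 CPM (1.16 ± 0.078). Xbp1, which expands the secretory apparatus, stood at 0.82 and Jchain, which links IgA into dimers, at 0.91. The number of plasma cell genes called was 11 without replicate 1 and 10 without replicate 2.

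Immunoglobulin genes together took 15.01% ± 3.54 (SD, n = 4) of ileal counts and 8.05% ± 2.23 of colonic counts. The share was higher in the ileum of 4 of 4 mice, by 6.97 percentage points on average. An exact 2-sided permutation over the 8 libraries, which ignores the pairing by mouse, gave p = 0.0286 (0.0536 after adjustment over 15 shares). That is the smallest p the unpaired test can give. With the mice paired, the exact sign-flip p was 0.125, the smallest 4 mice allow. IgA was the dominant class in both tissues. Igha took 98.4% ± 0.719 of heavy chain constant region counts in the ileum and 93.6% ± 2.61 in the colon (permutation p = 0.0286, sign-flip p = 0.125). The naive B cell classes ran the other way: Ighm took 0.0356% ± 0.00744 of counts in the ileum and 0.0918% ± 0.0339 in the colon, lower in the ileum of 4 of 4 mice.

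Germinal centre genes, of B cells that mature against antigen, mostly did not pass the test, and follicle genes were divided. Of 9 germinal centre genes tested, 8 were not called, and the median was -0.78. The 1 called, Nuggc, was higher in the ileum, as were 14.4% of all genes. The call of Nuggc was lost without replicate 1 (adjusted p = 0.0729). Of 9 follicle genes, 2 were higher in the ileum and 3 in the colon (14.4% and 8.89% of all genes were). Cxcl13, the chemokine that draws B cells into follicles, was at 44.6, 30.5, 33.6 and 6.34 CPM in the colon and at 1.77, 0.390, 2.14 and 1.42 CPM in the ileum. Colonic replicate 4 lay below the other colonic libraries, yet above all ileal ones (log2 fold change -4.16 ± 0.59, adjusted p = 0.008997, and 0.0554 without replicate 3). Spib, a factor of B cells and of the M cells that overlie follicles, is in both lists and was higher in the colon (-2.17). Madcam1, the vascular addressin for gut homing, was higher in the ileum (195 ± 39.9 against 59.5 ± 26.1 CPM, 1.80 ± 0.21). Gp2, a receptor of mature M cells, had 140 counts over the ileal libraries and 1 over the colonic ones, a ratio of 159 (95% counting interval 28.2 to 6342).

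T cell markers were higher in the ileum. Of 21 genes, 19 were called towards the ileum and 1 towards the colon, with a median log2 fold change of 0.99. Cd4, the co-receptor of helper T cells, was at 100.4, 115, 97.4 and 127 CPM in the ileal libraries and at 34.7, 40.7, 33.8 and 33.5 CPM in the colonic ones, 2 ranges that lay far apart (log2 fold change 1.62 ± 0.10, adjusted p = 0.0005997). Cd6, an adhesion receptor, stood at 1.92, Cd3g, of the T cell receptor complex, at 1.14, and the costimulator Cd28 at 0.85. Cd2, which B cells of the mouse also carry, was the gene called towards the colon (-0.80 ± 0.21, adjusted p = 0.0404). That call was lost without replicate 1, 2 or 4 (adjusted p 0.139, 0.0620 and 0.110).

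Of the cytotoxic, regulatory, type 17 and type 2 lymphocyte genes that passed, all but 2 were higher in the ileum. Of 20 cytotoxic and natural killer cell genes, 13 were higher in the ileum and none in the colon (median 0.94). Gzma, a granule protease, was at 46.2, 35.8, 30.7 and 34.7 CPM in the ileum and 3.79, 2.73, 2.76 and 3.92 CPM in the colon, with no overlap (log2 fold change 3.48 ± 0.13, adjusted p = 0.000356). Gzmb, the companion protease, stood at 1.84, Itgae, the integrin that holds lymphocytes at the epithelium, at 1.38, and the chemokine Ccl5 at 1.27. The other 7 genes were not called.

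Of 14 regulatory T cell genes, 10 were higher in the ileum and none in the colon (median 1.01). Tnfrsf9, the costimulatory receptor 4-1BB, was at 76.2, 94, 77.4 and 68.1 CPM in the ileum and 20.8, 23.2, 21.8 and 21.2 CPM in the colon. Every ileal library exceeded every colonic one by more than the spread within either tissue (log2 fold change 1.85 ± 0.088, adjusted p = 0.000356). Il10, the anti-inflammatory cytokine, averaged 31.5 ± 3.24 against 7.66 ± 1.04 CPM (2.04 ± 0.11). Ctla4, the inhibitory receptor, stood at 1.57 and Ikzf2, the transcription factor Helios, at 1.55. Foxp3, the lineage factor, named here after its values were seen, averaged 42.7 ± 17.4 against 13.2 ± 1.28 CPM (1.62 ± 0.16), with ileal replicate 2 highest at 67.9 CPM.

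Of 13 genes of Th17 cells and group 3 innate lymphoid cells (ILC3), 7 were higher in the ileum and 1 in the colon (median 0.64). Il17a, the signature cytokine, was at 11.8, 9.24, 3.59 and 3.66 CPM in the ileum and 0.421, 0.512, 0.651 and 0.772 CPM in the colon, with replicates 1 and 2 the higher ileal pair (log2 fold change 3.38 ± 0.49, adjusted p = 0.00655). The receptors and factors Rora (1.4), Cxcr6 (1.39) and Maf (0.58) followed. Ccr6, which resting B cells carry as well, was the gene called towards the colon (-2.27 ± 0.24). Of 14 genes of type 2 lymphocytes and group 2 innate lymphoid cells, 6 were higher in the ileum and 1 in the colon (median 1.57). Nmur1, the neuromedin receptor of these cells, stood at 2.95 ± 0.37, the neuropeptide gene Calca at 2.54, the repair factor Areg at 1.78 and the lineage factor Gata3 at 1.70. Of 6 gamma delta T cell genes tested, 2 were higher in the ileum and 1 in the colon.

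Of the immune lists, that of macrophages had the highest number called towards the ileum, and also the most genes tested. The T cell list, with 19 of 21, had the larger share called. Of 23 tested, 20 were higher in the ileum, none in the colon and 3 were not called, with a median log2 fold change of 1.83, or 4379 to 5964 CPM summed in the ileum against 2306 to 2742 CPM in the colon. Csf1r, the receptor for the macrophage growth factor, was at 404, 329.7, 409 and 532 CPM in the ileum and 72.2, 87.5, 70.7 and 72.5 CPM in the colon. The lowest ileal value was several times the highest colonic value (log2 fold change 2.45 ± 0.17, adjusted p = 0.000784). Adgre1, the F4/80 antigen, averaged 120.4 ± 11.5 against 27.4 ± 5.42 CPM (2.15), and Cx3cr1, the fractalkine receptor of resident gut macrophages, stood at 1.60. Siglec1 had the largest shift of the list, at 14.6 ± 3.88 against 1.34 ± 0.583 CPM. Between 19 and 20 of the 23 were called under the alternatives.

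Monocyte genes were called in both directions, neutrophil genes towards the ileum and dendritic cell genes mostly towards the ileum. Over all genes tested, 14.4% were higher in the ileum and 8.89% in the colon. The dendritic cell count towards the colon was near the latter share. Of 12 monocyte genes, 4 were higher in the ileum and 4 in the colon: Thbs1, the matrix protein thrombospondin 1 (2.06), Treml4 (1.94) and Ace (1.16) on the ileal side, Vcan, the proteoglycan versican (-1.03), on the colonic side. Of 12 neutrophil genes, 6 were higher in the ileum and none in the colon (median 1.12), among them the chemokine Cxcl2 (1.93) and the growth factor receptor Csf3r (1.63). The granule genes Camp, Ly6g and Ngp, named after their values were seen, had at most 15 counts in a tissue over 4 libraries and were not tested. Of 19 dendritic cell genes, 7 were higher in the ileum, with Itgax, the integrin CD11c, at 1.53, Batf3 at 1.58, Cd209a at 1.55 and Sirpa at 0.86, and 2 in the colon, of which Ccr7, the receptor for migration to lymph nodes that B and T cells also carry, had the larger shift (-1.62). Of the dendritic cell genes, 4 were higher in the ileum without replicate 1 and 4 without replicate 4. Summed over this list, ileal libraries averaged 1214 CPM (range 1061 to 1326), less than the colonic average of 1530 CPM (1324 to 1704). The majority of ileal calls was therefore not seen in the sum. With Δchat, 13 of the 19 dendritic cell genes kept their sign.

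Mast cell genes divided between the tissues. Hdc, the enzyme that makes histamine, was at 50.01, 49.1, 46.4 and 45.98 CPM in the ileum and 17.2, 8.45, 11.3 and 12.9 CPM in the colon (1.98 ± 0.17), and Kit, the stem cell factor receptor, stood at 1.04. Proteases of connective tissue mast cells were higher in the colon. Tpsb2, a tryptase, was at 0, 0.167, 0.262 and 0.164 CPM in the ileum and 2.73, 2.82, 4.06 and 1.49 CPM in the colon, without overlap (-4.16 ± 0.57, adjusted p = 0.00538), and Mcpt4, a chymase, stood at -3.18. In all, 3 of 11 mast cell and basophil genes were higher in the ileum and 4 in the colon (2 without replicate 2). Their median was -0.40, while the summed level of the list was 175 to 195 CPM in the ileum and 91.8 to 109 CPM in the colon. Of 7 eosinophil genes tested, 3 were higher in the ileum and 1 in the colon, with Siglecf, their sialic acid receptor, at 3.31. The ileal count ranged from 2 to 5 under the alternatives, and 3 of the 7 genes kept their sign with Δchat. Ear1 and Ear6 had no count in the 8 libraries.

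Among the non-immune sources, blood endothelium stood higher in the ileum and most other stromal and epithelial genes did not pass the test. Of 13 endothelial genes, 11 were higher in the ileum and none in the colon (median 0.84). Vwf, the von Willebrand factor, was at 1012, 788, 859 and 962 CPM in the ileum and 232, 249, 359 and 396 CPM in the colon, with no overlap (log2 fold change 1.58 ± 0.17, adjusted p = 0.00252). Plvap, of the endothelial diaphragm, stood at 1.47, Kdr, a receptor for vascular endothelial growth factor, at 1.27, and the guidance receptor Robo4 at 1.27. The number called was 4 without replicate 1, 5 without replicate 2 and 5 without replicate 4. None of 6 lymphatic genes was called by edgeR, DESeq2 or limma-voom (edgeR: 0 at an unadjusted p under 0.05; DESeq2: 3), while edgeR with a smooth muscle score as a covariate called 3 towards the ileum.

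Of 25 fibroblast genes, 4 were higher in the colon, none in the ileum and 21 were not called, with a median of -0.11. Postn, the matrix protein periostin, was at 293, 478, 350.2 and 175 CPM in the colon and 55.4, 30.7, 43.03 and 54.3 CPM in the ileum. Its lowest colonic library, replicate 4, remained above the ileal range (log2 fold change -2.76 ± 0.39, adjusted p = 0.00771). Bmp5, a morphogen of the subepithelial fibroblasts, averaged 29.04 ± 14.3 against 3.48 ± 1.17 CPM (-2.93 ± 0.45), and the other 2 called were Edil3 (-1.91) and Bmp4 (-1.43). Without replicate 3, Postn alone was called, and Bmp5, Edil3 and Bmp4 had adjusted p-values of 0.0547, 0.0953 and 0.165. Edil3 was also lost without replicate 1 (0.0605), and Bmp4 without replicate 1 (0.101) or 2 (0.0769). Of 16 genes of smooth muscle and pericytes, 1 was higher in the colon and 15 were not called. Of 11 enteric glia and neuron genes tested, 3 were higher in the ileum, with Ret, a growth factor receptor of enteric neurons that ILC3 also carry, at 1.64 and Uchl1 at 1.57.

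Few epithelial genes passed the test. Of 21 genes of the epithelium in general, 1 was called, Tspan8 towards the ileum (1.44 ± 0.24), and none of the 8 goblet cell genes was by edgeR, DESeq2 or limma-voom (0 at an unadjusted p under 0.05 by each of the 3). The 12 Paneth cell genes tested, antimicrobial products of the small intestinal crypt base, had a median log2 fold change of 5.86, but none was called by edgeR (1 had an unadjusted p under 0.05). DESeq2 called 11 of the 12 towards the ileum and limma-voom 1. Without replicate 4, 14 Paneth cell genes were tested and all 14 were called towards the ileum. Defa24, an alpha-defensin, was at 319, 228, 35.1 and 18.1 CPM in the ileum and 0, 0, 0 and 19.7 CPM in the colon. Replicates 1 and 2 made up most of the ileal signal, colonic replicate 4 lay between the 2 lowest ileal libraries, and the fitted value was 7.08 ± 2.87 (adjusted p = 0.155, and 0.00232 without replicate 4). The related Defa29 and Defa32 were called (6.39 and 6.40), and both calls were lost without replicate 1, 2 or 3, at adjusted p-values of 0.0990, 0.112 and 0.120 for Defa29 and 0.142, 0.154 and 0.177 for Defa32. Defensin genes are near copies of each other, so their reads may be divided between them uncertainly. The 2 called genes of the colonocyte list, both carbonic anhydrases, went in opposite directions: Car1 was at 2.21, 4.82, 5.56 and 3.92 CPM in the colon and detected in 1 ileal library, at 0.6997 CPM (-4.98), while Car4 averaged 28.3 ± 8.21 CPM in the ileum and 5.89 ± 2.76 CPM in the colon (2.31).

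Posterior Hox genes were higher in the colon, and 3 Hoxc genes were among those higher in the ileum. Of 31 Hox and other regional factors tested, 7 were higher in the colon (8.89% of all genes were) and 4 in the ileum, an ileal share no greater than the 14.4% of all genes. The 2 groups fell at different paralogue numbers. All 7 colonic genes had paralogue numbers from 9 upwards: Hoxa9 (-3.30), Hoxa10 (-5.50), Hoxa11, Hoxa13, Hoxb13, Hoxd11 and Hoxd13. Hoxd13 had 488 counts over the 4 colonic libraries and 1 over the 4 ileal ones, a ratio of 428 (95% counting interval 76.5 to 16958), with 5.05, 6.91, 7.09 and 2.48 CPM in the colon (adjusted p = 0.00109). Hoxa11 had 584 counts in the colon and 2 in the ileum (ratio 256, 70.7 to 2122), Hoxa13 had 301 and 1, and Hoxd11 had 215 and 1. In Hoxd13, Hoxa11, Hoxa13 and Hoxd11 every colonic library held counts, and colonic replicate 4 held the lowest colonic level of each. The 4 ileal genes had paralogue numbers from 4 to 8, and 3 of them lay in the Hoxc cluster. Hoxc8 averaged 5.07 ± 1.31 CPM in the ileum and 0.243 ± 0.359 CPM in the colon (4.81 ± 0.79, adjusted p = 0.0102), Hoxc6 stood at 2.95, and Hoxc5 had 68 counts in the ileum and 1 in the colon. Hoxa4 was at the threshold (1.33 ± 0.38, adjusted p = 0.0498), and its call was lost without any 1 of the 4 mice, at an adjusted p of 0.0992 to 0.167. Without replicate 3, 2 of the 4 ileal calls remained. Genes of paralogue numbers 1 to 3 were not called in either direction.

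**Figure D3:**
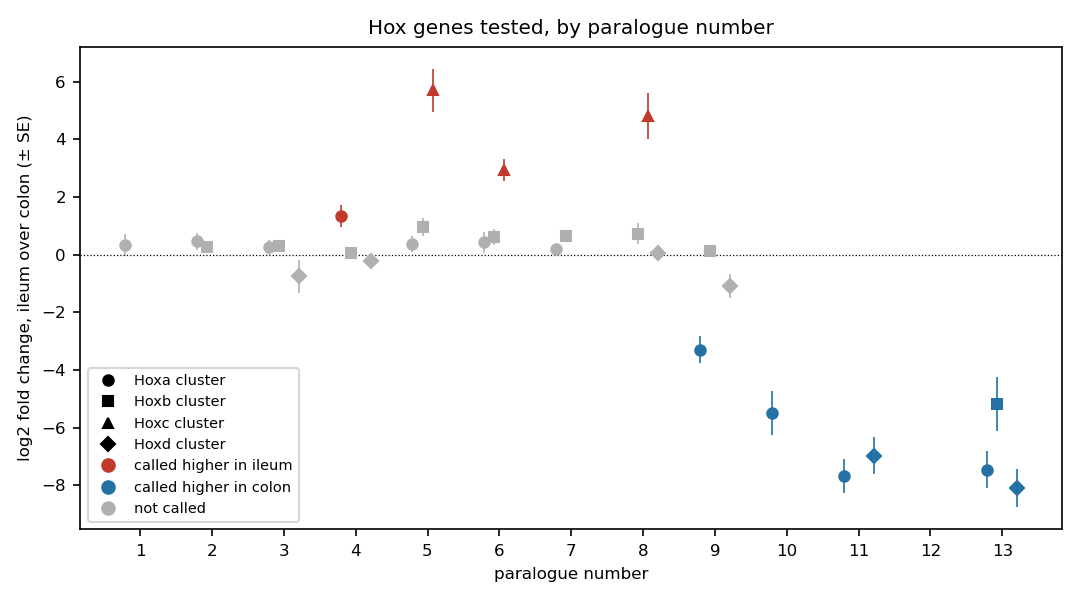
Fitted log2 fold change (ileum over colon, ± SE) of each Hox gene tested against its paralogue number, marked by cluster and coloured by call. Outside the Hoxc cluster, genes of paralogues 1 to 8 lie between -0.76 and 1.33, and those called at paralogues 9 to 13 lie on the colonic side; genes with 1 to 3 counts in a tissue have fitted values that depend on the prior count.

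Receptors that direct lymphocytes to the small or the large intestine differed between the tissues. Ccr9, the receptor for the small intestinal chemokine Ccl25, was at 82.1, 121, 85.8 and 91.9 CPM in the ileum and 11.04, 9.99, 9.12 and 18.1 CPM in the colon. Replicate 4 was the highest colonic library and still far below the ileal range (log2 fold change 3.01 ± 0.21, adjusted p = 0.000964). Gpr15, the colon homing receptor, named after its values were seen, was at 2.47, 3.95, 2.58 and 1.69 CPM in the ileum and 4.84, 8.88, 6.05 and 4.96 CPM in the colon, again without overlap (-1.22 ± 0.19, adjusted p = 0.00752). Of 23 homing and retinoic acid genes, 9 were higher in the ileum and 2 in the colon (median 0.25), the latter Gpr15 and Rbp4, the plasma retinol carrier (-2.61). Cxcl16, the ligand of Cxcr6, stood at 1.26. Cyp26b1, which degrades retinoic acid and was also named after its values were seen, averaged 211 ± 50.8 CPM in the ileum against 52.2 ± 49.01 CPM in the colon, where replicate 3 reached 125 CPM (2.36 ± 0.43); its adjusted p rose from 0.0176 to 0.0817 without replicate 2 and 0.0696 without replicate 4. Of 26 chemokine genes, 15 were higher in the ileum and 2 in the colon (median 0.79). The monocyte attractants Ccl2 (1.69) and Ccl12 (3.02) and the inflammatory Ccl4 (2.17) were on the ileal side. In the homing and chemokine lists, the colonic counts were near the 8.89% of all genes, and the ileal counts above the 14.4%.

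Interferon-induced genes were higher in the ileum almost throughout. Interferons, cytokines of antiviral defence, act on many of their target genes through a promoter sequence, the interferon-stimulated response element (ISRE). The upstream 250 bases of 3 called genes, Isg15 (chr4:156200819-156201068, minus strand), Ifit1 (chr19:34640639-34640888, plus strand) and Gbp2 (chr3:142620413-142620662, plus strand), are shown as examples of targets that carry the ISRE core, searched as GAAANNGAAA on both strands. They come from RefSeq promoters on GRCm38.p6, run 5′ to 3′ along the gene and end at the base before its annotated start, and capitals mark the core or overlapping cores.
Isg15: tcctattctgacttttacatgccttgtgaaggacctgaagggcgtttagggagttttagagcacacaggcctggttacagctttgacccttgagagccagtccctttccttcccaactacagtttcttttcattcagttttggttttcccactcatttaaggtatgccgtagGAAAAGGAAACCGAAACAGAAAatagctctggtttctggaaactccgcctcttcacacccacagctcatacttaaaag
Ifit1: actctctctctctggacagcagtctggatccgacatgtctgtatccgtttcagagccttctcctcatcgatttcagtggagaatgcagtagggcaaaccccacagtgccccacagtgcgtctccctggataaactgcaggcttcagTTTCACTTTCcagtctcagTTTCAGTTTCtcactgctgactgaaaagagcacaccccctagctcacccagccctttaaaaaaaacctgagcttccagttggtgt
Gbp2: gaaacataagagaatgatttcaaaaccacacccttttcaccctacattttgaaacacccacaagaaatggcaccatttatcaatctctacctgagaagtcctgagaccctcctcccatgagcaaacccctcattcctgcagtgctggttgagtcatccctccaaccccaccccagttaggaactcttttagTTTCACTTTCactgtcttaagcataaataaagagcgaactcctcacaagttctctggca
Promoters were at hand for 20 of the 28 list genes, and 11 of the 20 (55%) held the ISRE core in this window. It was in 2.98% of all 32841 promoters and in 2.90% of those of tested genes. Among genes higher in the ileum the share was 4.99%, with the list's own promoters included, and among those higher in the colon 2.34%. The list was chosen as interferon-induced genes, so its own share does not bear on the tissues. A second motif, TTCNNNGAA, the core of the gamma-activated site, was in 3 of the 20 (15%) and in 7.02% of all promoters. A match describes the letters and shows no binding.

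Of the 28 interferon genes, 27 were higher in the ileum (14.4% of all genes were) and 1, Ifi27l2a, was not called, with a median log2 fold change of 1.0. Cxcl9, a chemokine induced by interferon gamma, was at 57.1, 68.3, 59.3 and 87.5 CPM in the ileum and 5.68, 8.71, 10.7 and 11.5 CPM in the colon. The tissues did not overlap, and the log2 fold change was 2.92 ± 0.15 (adjusted p = 0.000399). Cxcl10 followed at 2.16 ± 0.15. Isg15, a ubiquitin-like modifier whose promoter is printed above, was at 66.6, 63.2, 62.7 and 69.5 CPM in the ileum and 23.97, 20.3, 30.96 and 26.7 CPM in the colon (1.38 ± 0.12). Ifit1, which binds foreign RNA, averaged 65.8 ± 7.26 against 23.1 ± 4.68 CPM (1.52), Gbp2 averaged 121 ± 12.3 against 59.01 ± 8.44 CPM (1.04), and Zbp1, a sensor of nucleic acids, stood at 0.97. Between 19 (without replicate 4) and 27 of them were called under the alternatives. The macrophage and T cell lists were higher in the ileum too, with the sums and counts given above, and their part in the interferon result was not tested.

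**Figure D4:**
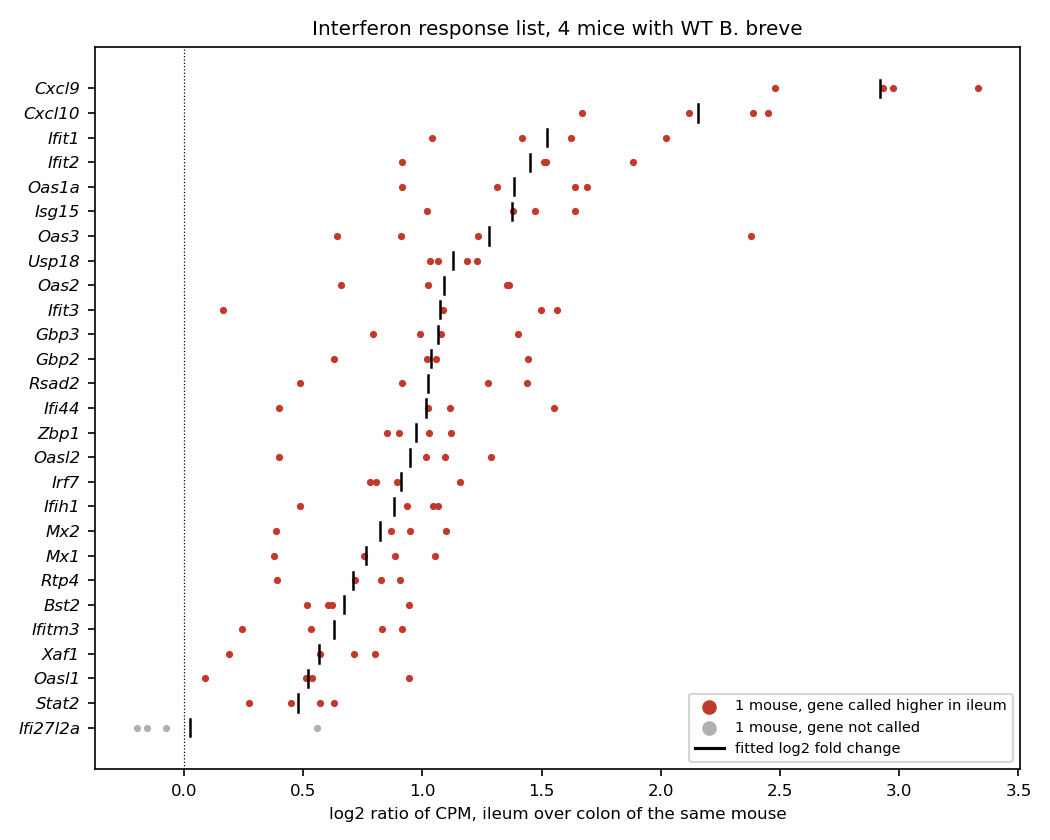
Each point is the log2 ratio of CPM, ileum over colon, in 1 mouse, for 27 of the 28 interferon list genes in order of their fitted log2 fold change (black bar); red marks genes called higher in the ileum and grey the uncalled one. For each of the 26 called genes shown all 4 mice lie above 0.

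Receptors for microbial patterns leaned to the ileum, with 14 of 27 higher there (median 0.50), led by Clec4n, the fungal sensor dectin-2 (2.73), Tlr13, which reads bacterial ribosomal RNA (2.23), Nlrp3 of the inflammasome (1.60) and Clec7a, dectin-1 (1.52). The colonic count was 3, near the 8.89% of all genes, and it was 0 without replicate 1, without replicate 2 or without replicate 4. Of 12 genes of MHC class II presentation, 3 were higher in the colon (6 without replicate 3) and 1 in the ileum. Their median was -0.22, and of all genes 8.89% and 14.4% were called in these directions. The colonic ones included H2-Ob, which is in the B cell list too. Secretory pathway genes of the unfolded protein response were higher in the ileum by a small amount, 19 of 28 with a median of 0.41, among them Ern1, the stress sensor IRE1 (1.16), and Herpud1 (0.72); the list shares Xbp1 and Creld2 with the plasma cell list, and 7, 6 and 12 were called without replicates 1, 2 and 4. Of 20 cell cycle genes, 1 was called, Mcm2 towards the colon, and the median was -0.009. The call of Mcm2 was lost without replicate 1, 2 or 4 (adjusted p 0.138, 0.08997 and 0.138).

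Of 22 immediate early and heat shock genes, a set that handling of tissue as well as signals within it can induce within minutes, 13 were higher in the ileum and none in the colon (median 0.59). Fosb was at 3424, 4461, 3659 and 3886 CPM in the ileum and 1367, 1946, 1953 and 1590.3 CPM in the colon, without overlap (1.18 ± 0.11, adjusted p = 0.00181), and Nfkbia (0.81), Atf3 (1.03) and Klf6 (0.93) went the same way. Their sum ranged from 28070.4 to 32424 CPM in the ileum and from 16498 to 23359 CPM in the colon. Their part in the other ileal results was not tested.

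In the Δchat mice, 3250 of the 3384 genes called with WT (96.0%) had the same sign. In the fit over all 16 libraries, 1175 of 15198 genes (7.73%) were higher in the ileum and 700 (4.61%) in the colon with Δchat. The ileal calls shared by both strains were 889, or 42.5% of those with WT and 75.7% of those with Δchat, and the colonic ones 337, or 26.1% and 48.1%. These shares set WT calls of the 8-library fit beside Δchat calls of the 16-library fit. With WT, the 16-library fit called 1923 genes towards the ileum and 1977 towards the colon. Gzma, Siglec1, Ccr9, Cxcl9 and C6 had fitted log2 fold changes of 3.71, 3.79, 2.95, 2.60 and 5.91 with Δchat, and Hoxa11 of -7.85. The B cell genes kept their sign in 20 of 20 cases, with Cr2 at -1.90 (adjusted p = 0.0743).

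The ileal excess of Tnfrsf9 seen with WT was smaller with Δchat. A difference of the tissue effect between the strains was called for 3 of the 15198 genes (0.0197%), each lower in ileum relative to colon with Δchat. An unadjusted p under 0.05 was found for 1277 genes, where about 760 are expected if no gene differs. The count was 0 without WT replicate 1, 2 or 3 or Δchat replicate 4, 5 without Δchat replicate 2, 14 without WT replicate 4, and 138 with DESeq2. Tnfrsf9, one of them, was at 26.9, 137, 27.5 and 22.4 CPM in the 4 ileal and 25.2, 104, 19.7 and 19.96 CPM in the 4 colonic Δchat libraries. Δchat replicate 2 was far above the other 3 mice in both tissues, and the tissue effect was smaller by 1.53 ± 0.12 on the log2 scale (adjusted p = 0.00836). Wnt11, a secreted signal, had a tissue effect of 0.30 with WT and of -1.61 with Δchat in the same fit (difference -1.90 ± 0.20, adjusted p = 0.0257), and the third was the light chain segment Igkv1-135 (difference -2.54). Leaving out mice ended both calls: Tnfrsf9 was lost without WT replicate 1, 2 or 3 or Δchat replicate 4, at an adjusted p of 0.0551 to 0.0631, and without the pairing by mouse (0.645), and Wnt11 was lost without WT replicate 1, 2 or 3 and without each of the 4 Δchat mice in turn (0.0560 to 0.157) and with an epithelial score as a covariate (0.107). The next by p-value, Dgat2, an enzyme of triglyceride synthesis (-1.73), Itgae (-1.10) and Ikzf2 (-1.07), did not pass (adjusted p = 0.0890 by edgeR for each, and 0.0209 for Dgat2 without WT replicate 4). DESeq2 gave adjusted p-values of 5.48e-08 for Dgat2, 5.62e-08 for Itgae and 1.77e-06 for Ikzf2, which pass. Foxp3, named after its values were seen, had a tissue effect of -0.05 with Δchat against 1.59 with WT, and the difference did not pass the threshold (adjusted p = 0.0988). Fosb stood at 0.016 with Δchat against 1.15 with WT, a difference that did not pass either (adjusted p = 0.169).

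**Figure D5:**
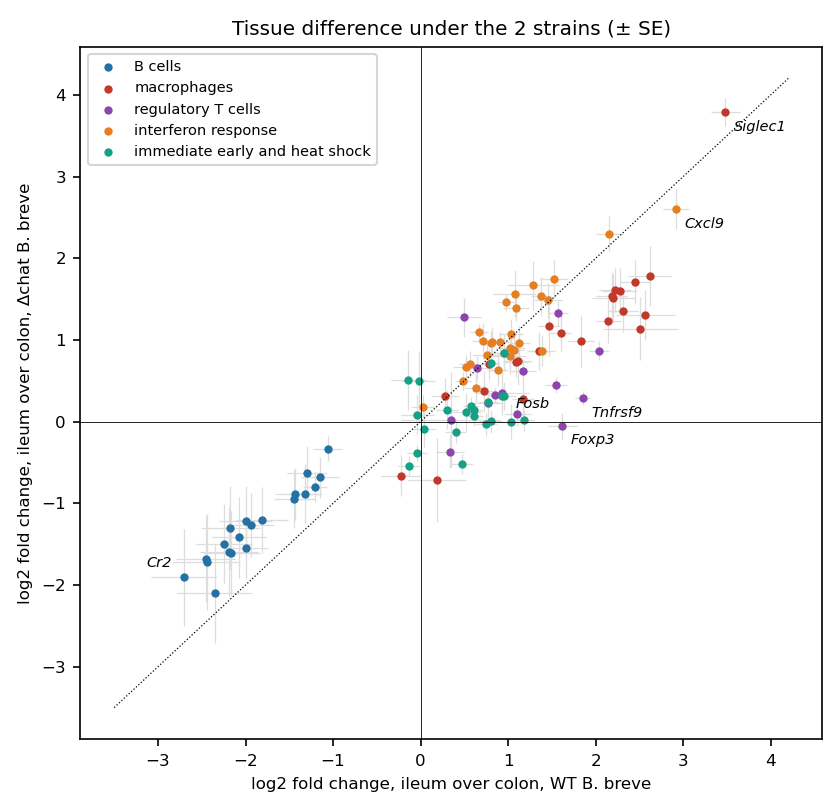
Fitted log2 fold change of ileum over colon with WT (horizontal axis) and with Δchat B. breve (vertical axis), with SE bars, for the genes of 5 lists; the dotted line marks equal values. All 20 B cell genes, all 28 interferon genes and 22 of 23 macrophage genes have the same sign with both strains, as have 12 of 14 regulatory T cell genes and 15 of 22 immediate early genes.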

How the data were processed

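Per the submitters' processing notes, reads were trimmed with cutadapt 5.0 and quantified with Salmon 1.4.0, and the build named is GRCm39. The deposited values were estimated counts per gene, not normalized; they were rounded to whole numbers here. The library protocol in the labels does not mark strand, so overlapping antisense genes cannot be told apart. The labels give each library's mouse, so ileum and colon of a mouse were paired. Deviations of same-mouse libraries from their group means correlated between -0.0482 and 0.0848, and those of different mice between -0.157 and 0.191. The same-mouse range lay within the different-mouse range.

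Genes passing edgeR's filterByExpr were tested with edgeR 4.0.16 (quasi-likelihood, TMM, mouse and tissue as terms, 3 residual degrees of freedom, Benjamini-Hochberg adjustment) in R 4.3.3. A second fit over 16 libraries tested the difference between strains. DESeq2 1.42.0, limma-voom (limma 3.58.1), other filters, scalings and covariates, and leaving out each mouse were alternatives. The edgeR test was checked on simulated data. Nothing in the labels says that mice of a strain came from separate cages. The p-values of the paired fits therefore measure how far the within-mouse tissue difference varied over these mice.

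Named genes were up to 12 per direction by smallest p (mean of at least 5 CPM in the higher tissue, same sign in 4 mice), up to 8 by largest change (at least 10 CPM), and up to 4 called, or 3 uncalled, genes of each of 42 gene lists; immunoglobulin and T cell receptor segments, unnamed models and pseudogenes were left out. For the strain difference they were the 5 with the smallest p. The comparison and the lists were chosen with earlier results of these data known. Of the list symbols, 2 were not matched, and 1 gene of the interferon list is not reported here by itself. Promoter sequences came from RefSeq on GRCm38.p6, another build than the one named for the counts.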

Additional observations from a re-analysis of the deposited data

Results flagged for a closer look

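In 35 of 406 groups of 4 libraries (8.62%), 1 library stood further from the rest than Dixon's 95% limit allows, and chance gives about 5%, or 1 group in 20. The groups share libraries and genes, so the share is not a test. The value in parentheses is followed by the nearest of the other 3 libraries. Colonic replicate 1 stood apart in Gbp8 (7.36 CPM, below 10.97), Siglec1 (2.21 CPM, above 1.11) and Ighd (458 CPM, above 242). Colonic replicate 1 did so too in Areg (6.05 CPM, below 11.4), Itgax (57.9 CPM, below 81.04) and Klf6 (451 CPM, below 524). Colonic replicate 1 did so too in the summed T cells list (801 CPM, above 712), the Ighm share of counts (0.142%, above 0.0789%) and the Ighd share of counts (0.0494%, above 0.0256%). Colonic replicate 1 did so too in the Ighg2b share of counts (0.0120%, above 0.00321%). Colonic replicate 2 stood apart in Cd4 (40.7 CPM, above 34.7) and Csf1r (87.5 CPM, above 72.5). Colonic replicate 3 stood apart in Cyp26b1 (125 CPM, above 34.6), Alas2 (21.2 CPM, above 12.5) and Tcrg-C2 (2.38 CPM, above 1.10). Colonic replicate 4 stood apart in Il10 (9.21 CPM, above 7.34). Ileal replicate 1 stood apart in Gpat3 (6.48 CPM, above 4.90). Ileal replicate 2 stood apart in Cxcr6 (41.5 CPM, above 26.6), Hoxc8 (3.12 CPM, below 5.54) and Klf6 (1267 CPM, above 883). Ileal replicate 2 did so too in the summed Th17 cells and ILC3 list (895 CPM, above 730.2), the summed macrophages list (4379 CPM, below 5789.9) and the summed mast cells and basophils list (195 CPM, above 178). Ileal replicate 3 stood apart in Fcrla (57.1 CPM, above 35.3).

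Other genes past the limit were at 0 in 3 libraries of a tissue and held counts in 1. In the ileum these were Hoxa11 (0.111 CPM in replicate 2), Hoxd13 (0.0546 CPM in replicate 4), Car1 (0.6997 CPM in replicate 3), Hoxa13 (0.0589 CPM in replicate 1), Hoxd11 (0.0437 CPM in replicate 3) and Hoxb13 (0.223 CPM in replicate 2). In the colon these were Defa32 (1.32 CPM in replicate 4), Defa29 (0.441 CPM in replicate 4), Gp2 (0.0551 CPM in replicate 4), Hoxc5 (0.0383 CPM in replicate 3) and Defa24 (19.7 CPM in replicate 4). 

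The tissue effect was called different between the strains for Tnfrsf9 (-1.53), Igkv1-135 (-2.54) and Wnt11 (-1.90) (edgeR, adjusted p = 0.00836, 0.0124 and 0.0257). Each value is the log2 ratio of ileum over colon with Δchat minus that with WT. None of these calls held without WT replicate 1, 2 or 3 or without Δchat replicate 4. For Igkv1-135, a variable segment that single expanded clones can dominate, the mean level was 863 ± 386 CPM in the ileum and 174 ± 99.3 CPM in the colon with WT, and 131 ± 42.6 and 158 ± 89.96 CPM with Δchat (SD, n = 4). The gene falls outside the naming rule and was named after its values were seen.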

How the results depend on the processing

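No gene called in the paired test changed sign under any alternative in which it was tested, and no named gene reversed. Genes called in all ranged from 1556 to 3218 when 1 mouse was left out, 1099 to 1922 towards the ileum and 425 to 1296 towards the colon. Calls towards the colon numbered 2143 without the pairing by mouse (no replicate block), 801 with an epithelial score as a covariate and 1977 in 1 fit over 16 libraries, where calls towards the ileum numbered 1923, so the ileal majority was not seen. Genes whose tissue effect differed between strains numbered 9 without the pairing, 138 with DESeq2 and 0 to 14 when 1 mouse was left out: 0 without WT replicate 1, 2 or 3 or Δchat replicate 4, 5 without Δchat replicate 2 and 14 without WT replicate 4. The immunoglobulin share differed by 6.97 percentage points whether or not the mice were paired, with an exact sign-flip p of 0.125, the smallest 4 mice allow, and by 6.02 to 7.74 points with 1 mouse left out (exact permutation p = 0.1, the smallest possible). Of the named genes, 17 lost their call without replicate 1, 12 without replicate 2, 9 without replicate 3, 7 without replicate 4 and 11 with the epithelial score; the cause was not tested. Depth limits the Hox, mast cell and defensin genes with few or no counts in 1 tissue, whose fitted fold depends on the prior count.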

Other observations

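Of 16 tested genes of signals that support IgA production, 3 were higher in the ileum and 4 in the colon, beside 14.4% and 8.89% of all genes, so the ileal count is near the background (colonic count 1 without replicate 1, 1 without replicate 2 and 2 without replicate 3). Il10 (2.04), Il6, the plasma cell survival cytokine (1.12 ± 0.099), and Ltbr, the lymphotoxin receptor (0.59), were higher in the ileum; the call of Ltbr was lost without replicate 1 or 4 (adjusted p 0.121 and 0.124). Tnfrsf13c, the B cell receptor for the survival factor BAFF, was at 61.3, 44.1, 33.3 and 57.3 CPM in the colon and 16.5, 13.6, 21.4 and 15.2 CPM in the ileum (-1.53 ± 0.23). Cxcl12, the chemokine of plasma cell niches, was called towards the colon (-0.82), and the call was lost without replicate 1, 2 or 3 (adjusted p 0.0879, 0.107 and 0.102).

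Epithelial sources other than Paneth cells held few counts. Of 21 genes of small intestinal enterocytes, 5 passed the filter and 1, Anpep, was called towards the ileum (0.58). Anpep alone averaged 78.5 CPM in the ileum and 53.1 CPM in the colon, most of the list's mean sums of 98.7 and 64.9 CPM. Of 15 enteroendocrine and tuft cell genes, 5 passed: Tph1, the enzyme of serotonin synthesis, was higher in the ileum (2.37 ± 0.54), and Dclk1 (-1.61) and the hormone gene Cck (-2.46) were higher in the colon. The calls of Anpep, Tph1, Dclk1 and Cck were all lost without replicate 1, at an adjusted p of 0.0980, 0.0918, 0.0604 and 0.0744. Those of Tph1 and Cck were also lost without replicate 2 (0.0833 and 0.0595), that of Tph1 without replicate 3 (0.0733) and that of Anpep without replicate 4 (0.0701). Red cell genes summed to 2540.2 to 6973 CPM in the ileum and 2149 to 4258 CPM in the colon, and 1 of 5, Alas2, was called towards the ileum (0.73), a call lost without replicate 1 (0.0630) or 2 (0.0706). Of 16 clock genes, Bhlhe40 was higher in the ileum (0.77) and Tef (-0.52) and Cry2 (-0.41) in the colon, counts near the 14.4% and 8.89% of all genes. The remaining 13 were not called, and Cry2 was lost without replicate 1, 2 or 4 (0.135, 0.123 and 0.0788). Gamma delta T cell genes were led by Tcrg-C2, one of several near-identical constant regions to which reads may be assigned uncertainly (2.05 ± 0.36, adjusted p = 0.0115, and 0.0510 without replicate 1).

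Some named genes with large or well separated differences belonged to none of the lists, among them C6, Gbp2b, Pitx1 and Inmt, given above. Lrrn4cl, a leucine-rich repeat gene, was at 5.47, 14.1, 15.9 and 8.88 CPM in the colon and 1.59, 1.002, 1.97 and 1.86 CPM in the ileum (-2.71 ± 0.34, adjusted p = 0.00429). Stra6l, a retinol transporter related to Stra6, averaged 30.8 ± 7.34 CPM in the ileum and 5.98 ± 1.48 CPM in the colon (2.37).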
